A study of Glycine max with 10 samples.

Results

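The genes described here were chosen by the gap between sampling days in the leaf transcriptome of soybean (Glycine max). For each gene with a mean of at least 5 CPM (the count of a gene relative to its library total, scaled with TMM factors), the gap was the lowest library of one day minus the highest library of the other, on the log2(CPM + 0.5) scale. The 100 genes with the largest gap in favour of day 11 (the day 11 list) and the 100 with the largest gap in favour of day 1 (the day 1 list) gave 200 genes of the 22023 tested and of the 55983 in the deposited table. A gap above 0 means that every library of one day lay above every library of the other. The working name of the set was genes that follow the sampling day in every library, and the data went against that name. Only 26 of the 200 genes had a gap above 0, and in the other 174 the libraries of the days overlapped. All day values below are those that chose the genes, so they are given as a description and without a test.

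The study asked how a first population of soybean aphids (SBA) changes the plant for a second one. Leaves came from greenhouse plants of a susceptible cultivar (genotype LD12-15838R in the labels, LD12-1583R in the paper) and of a resistant cultivar, LD12-15813Ra, which carries the aphid resistance gene Rag1. Control plants carried no aphids. Plants with the inducer received 50 biotype 2 aphids, which are virulent on Rag1 plants, and 15 biotype 1 aphids, which are avirulent, as the response population. Each of these treatments has a library for either cultivar on either day, 8 in all. The remaining treatment, 15 biotype 1 aphids without an inducer, has a library for either cultivar from day 11 alone. Day 1 therefore had 4 libraries and day 11 had 6. RNA of 3 replicates was pooled into every library. There is 1 library for each condition, and the spread between plants of a condition was not measured.

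Soybean leaves change their RNA as they expand, mature and age. Young blades express genes of cell division, wall loosening and chloroplast assembly, fully expanded blades express genes of photosynthesis and sugar export, and old blades express genes that break down proteins and export nitrogen. Many leaf genes also follow the light and dark cycle. Plants sampled on different days can thus differ in age, in hour of sampling and in greenhouse conditions, and these cannot be told apart here. Neither the hour of sampling nor the position of the sampled leaf is stated in the sources used here. In pooled leaf tissue, fewer cells of a type and less RNA per cell cannot be told apart either. The table pairs its identifiers (annotation Wm82.a2.v1) with no gene names, and 0 of its identifiers could be found in the available table of reference genes. No function is therefore given to any gene, the leaf label was not checked against marker genes, and of the 200 members 4 identifiers are printed, the first 2 of each list. Other members are named by their rank in the list and by the chromosome in their identifier.

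Rounded totals lay between 23394065 and 25665558 counts per library, a 1.10-fold range. The days were not the strongest division of these libraries. Of the tested genes, 0.118% (26) did not overlap between the days. The same count for the labelled cultivars was also 26, or 0.118%. Between control and infested libraries 4.77% (1050) did not overlap. Between the 5 libraries labelled susceptible, day 11 or resistant, day 1 and the other 5, 7.26% (1598) did not overlap, of which 2.39% were higher in the former and 4.87% in the latter. The cultivar labels of the 2 days thus did not divide the libraries in the same direction, and every comparison below that uses the labelled cultivar rests on labels with this property. The resistant control library of day 1 had the lowest TMM factor, 0.774, and the resistant inducer library of day 1 had the highest, 1.16.

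Of the day 11 list, 15 genes had a gap above 0, which is 0.0681% of the tested genes. Of the day 1 list, 11 did, which is 0.0499%. As the rule used these values, nothing is read from the shares. The gaps were narrow. In the day 11 list the widest was 0.13 on the log2 scale, or 1.10-fold, the second was 1.05-fold, and the median of the 15 was 0.038. In the day 1 list the widest was 0.31, or 1.24-fold, the second 1.19-fold, the third 0.15 on the log2 scale, and the median of the 11 was 0.048.

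**Figure D1:**
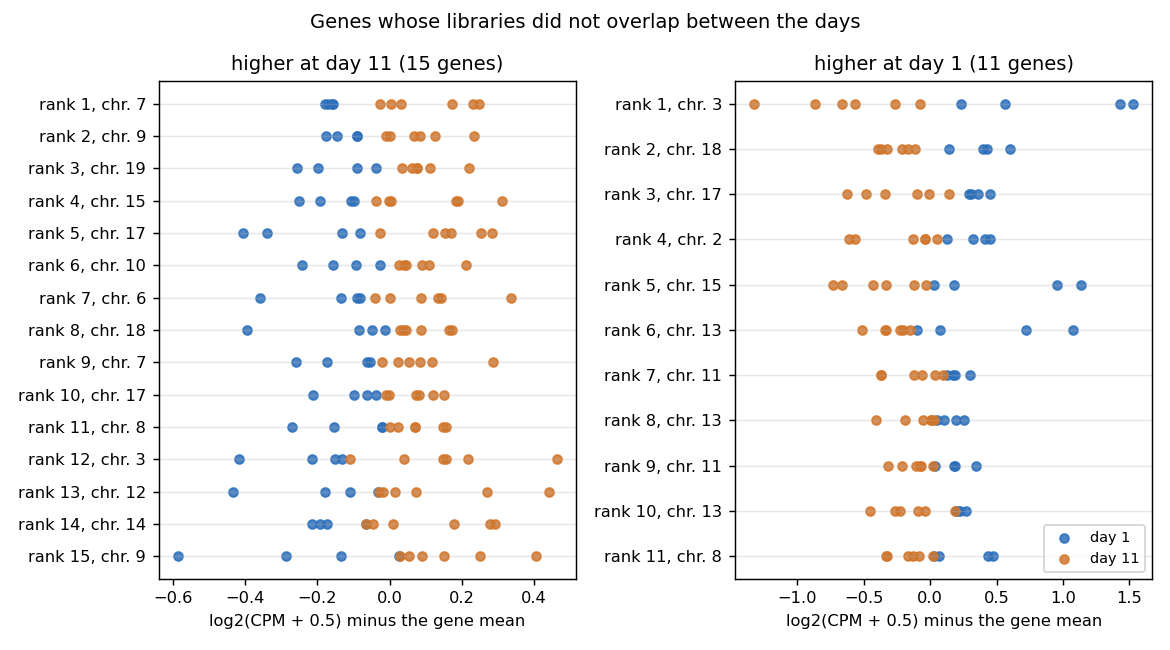
Each row is a gene whose libraries did not overlap between the days, named by its rank in the list and its chromosome, and each point is 1 library (blue, day 1; orange, day 11), plotted as log2(CPM + 0.5) minus the mean of the gene. The 15 genes of the day 11 list are on the left and the 11 of the day 1 list on the right; from rank 7 downward on the right the colours nearly touch.

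Glyma.07G195700, on chromosome 7, had the widest gap of the day 11 list. Its level at day 1 was 32.5 CPM in the susceptible control, 32.2 in the resistant control, 32.4 in the susceptible plants with the inducer and 32.0 in the resistant ones. At day 11 it was 41.0 and 36.4 CPM in the susceptible and resistant controls, 43.2 and 37.1 with biotype 1 alone and 42.7 and 35.6 with the inducer. The 4 libraries of day 1 lay within 0.5 CPM of each other, and at day 11 all 3 susceptible libraries lay above all 3 resistant ones. The mean was 32.3 ± 0.195 CPM at day 1 (SD over 4 libraries of different conditions) and 39.3 ± 3.36 at day 11 (SD over 6), a ratio of 1.22.

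Glyma.09G228600, on chromosome 9 and second in that list, had 15.0, 14.4, 14.1 and 15.0 CPM at day 1 in the susceptible control, resistant control, susceptible inducer and resistant inducer libraries. At day 11 it had 17.0 and 17.5 CPM in the susceptible and resistant controls, 18.9 and 16.8 with biotype 1 alone and 16.0 and 15.9 with the inducer. Its day means differed 1.16-fold, and the 2 libraries nearest to each other, both resistant with the inducer, had 15.9 CPM at day 11 and 15.0 at day 1.

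Glyma.03G198600, on chromosome 3, had the widest gap of the day 1 list and was the only one of the 26 genes whose day means differed at least 2-fold on the log2(CPM + 0.5) scale among the 276 tested genes that did so (24 higher at day 11, 252 higher at day 1). Its level at day 1 was 11.7 CPM in the susceptible control and 12.6 in the resistant control, but 4.84 and 6.22 with the inducer. At day 11 it was 2.57 and 3.27 CPM in the susceptible and resistant controls, 2.36 and 1.31 with biotype 1 alone and 1.99 and 3.81 with the inducer. Both controls of day 1 stood above both inducer libraries of day 1. The 6 libraries of day 11 lay below all of these, as a gap above 0 requires. The mean was 8.83 ± 3.87 CPM at day 1 and 2.55 ± 0.892 at day 11, a ratio of 3.46. By this ratio of mean CPM the gene of rank 5 in the day 1 list also differed at least 2-fold, at 2.07. Glyma.03G198600 reached the minimum of 5 CPM only through day 1. It fell below that minimum when either control of day 1 or the resistant inducer library of day 1 was left out. In all, 5 members of the day 11 list and 3 of the day 1 list, 2 separated genes in each, had a mean under 5 CPM on the day where they were lower.

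Glyma.18G191600, on chromosome 18 and second in the day 1 list, had 11.7 and 10.1 CPM in the susceptible and resistant controls of day 1 and 8.35 and 10.3 with the inducer. At day 11 its 6 libraries lay between 5.61 and 6.93 CPM, with a mean of 6.21 ± 0.54 against 10.1 ± 1.39 at day 1. The ratio of the means was 1.63.

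**Figure D2:**
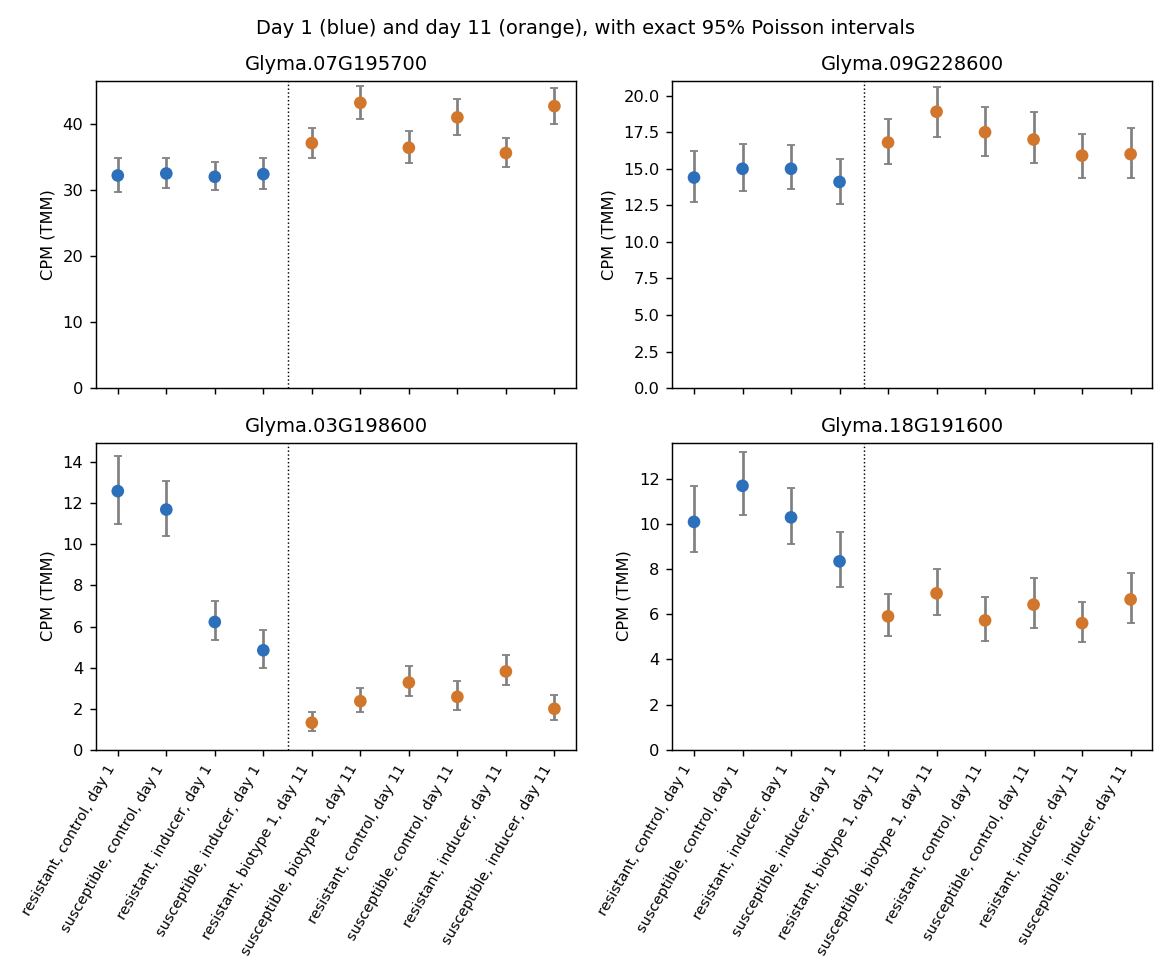
CPM of the first 2 genes of each list in the 10 libraries (blue, day 1; orange, day 11), with exact 95% Poisson intervals that cover counting error only; each axis starts at 0. All 4 day 1 libraries of Glyma.07G195700 sit between 32.0 and 32.5 CPM, a span narrower than the interval of each. Those of Glyma.03G198600 run from 4.84 to 12.6 CPM.

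Counting error was of the size of these gaps or larger. In Glyma.03G198600 the libraries that bound the gap were the susceptible inducer library of day 1 and the resistant inducer library of day 11, with 110 counts each. Their levels were 4.84 CPM (exact 95% Poisson interval 3.97 to 5.83) and 3.81 CPM (3.13 to 4.59). In Glyma.07G195700 the bounding libraries held 1028 and 797 counts, and their intervals, 33.5 to 37.9 and 30.3 to 34.8 CPM, overlapped as well. Over the 26 genes with a gap above 0, the intervals of the bounding libraries were apart in 0. This check was chosen after the gaps were seen. It covers counting error only, so differences between pools come on top. As it compares only the bounding libraries, it does not place the whole difference between the days within counting error. In Glyma.03G198600 the interval of the susceptible control of day 1 was 10.4 to 13.1 CPM.

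Over all 26 separated genes, the named ones included, levels spanned more than a factor of 10 in either list. In the day 11 list the 15 genes lay on 12 chromosomes, had mean levels between 5.37 and 73.4 CPM, and differed between the day means by 1.13- to 1.34-fold, with a median of 1.22-fold. In the day 1 list the 11 genes lay on 8 chromosomes, had mean levels between 5.06 and 91.1 CPM, and differed by 1.19- to 3.46-fold, with a median of 1.49-fold. In the genes of rank 5 and 6 in the day 1 list, on chromosomes 15 and 13, both controls of day 1 lay above both inducer libraries of day 1. Among the 11 genes this order was seen in 3, Glyma.03G198600 included, and in 17.5% of all tested genes. The place of day 11 below them was set by the gap. The gene of rank 5 had 35.0 and 30.8 CPM in the controls of day 1 and 17.8 and 16.0 with the inducer, and between 9.24 and 15.3 at day 11. The gene of rank 6 had 37.4 and 29.1 CPM in the controls of day 1, 16.3 and 18.5 with the inducer, and between 12.1 and 15.7 at day 11.

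The 174 members with overlapping days filled the lists down to a gap of -0.07 in the day 11 list and -0.12 in the day 1 list. At the cut of the day 11 list the last 2 genes inside had gaps of -0.0701 and -0.0706 and the first 2 outside -0.0706 and -0.0712. At the cut of the day 1 list they were -0.1161 and -0.1165 inside, and -0.1165 and -0.1166 outside. The cut therefore passed through genes that the gap did not tell apart.

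**Figure D3:**
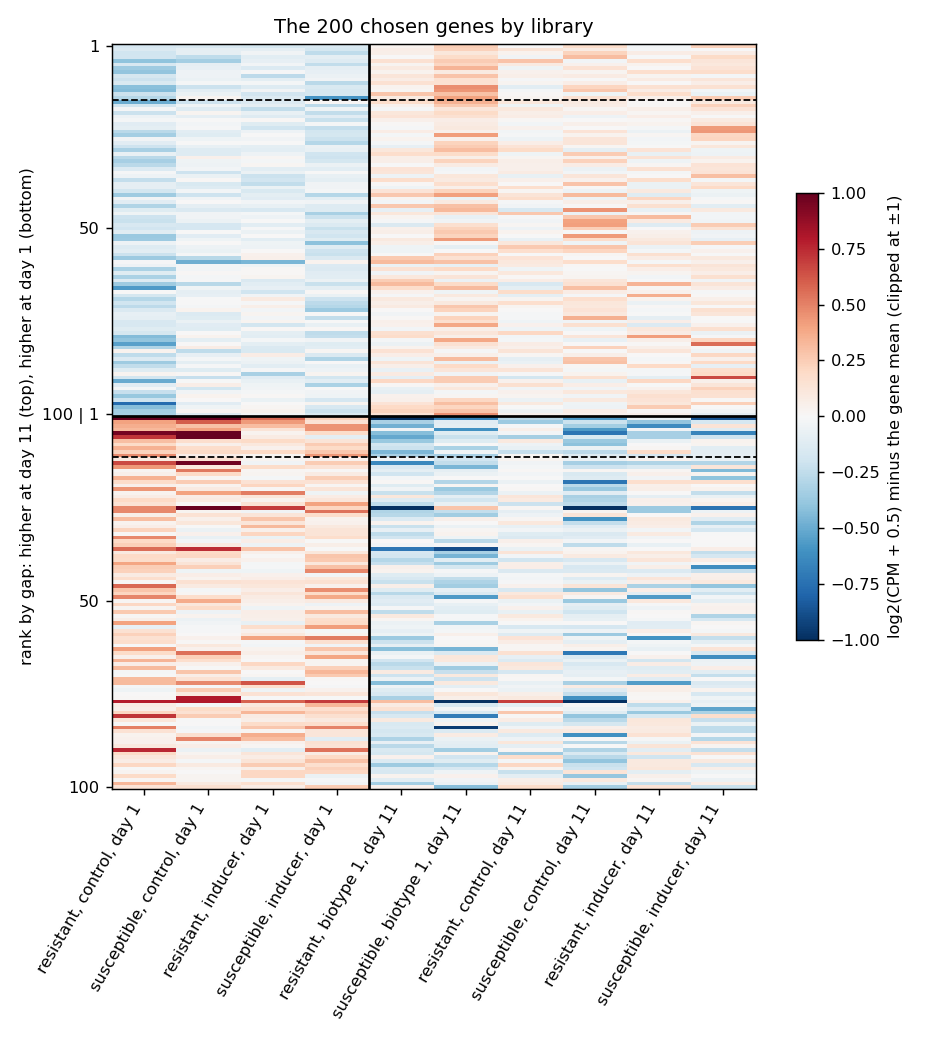
Heat map of the 200 genes (rows, by rank; day 11 list above, day 1 list below) in the 10 libraries (columns; day 1 left of the vertical line), coloured by log2(CPM + 0.5) minus the mean of the gene and clipped at 1 in either direction. Dashed lines mark the end of the 15 and 11 genes with a gap above 0; below them pale cells and cells of the opposite colour appear on both sides.

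The rule subtracts the spread within the days from the difference between them, and the lists held genes that varied little in any direction. The median range over the 10 libraries was 0.52 log2 units in the day 11 list and 0.67 in the day 1 list, against 1.05 over all tested genes. Of the members, 98 of 100 in the day 11 list and 83 of 100 in the day 1 list had a range below that median. The median difference between the day means was 0.21 (1.15-fold) in the day 11 list, with a largest value of 0.41. In the day 1 list it was -0.23 (1.17-fold), and the values ran from -1.56 to -0.0092. The genes with the largest mean differences were mostly outside: 591 tested genes had a mean difference in favour of day 11 above the largest of the day 11 list. Their days overlapped by the rule itself, since every gene with a gap above 0 was in a list.

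**Figure D4:**
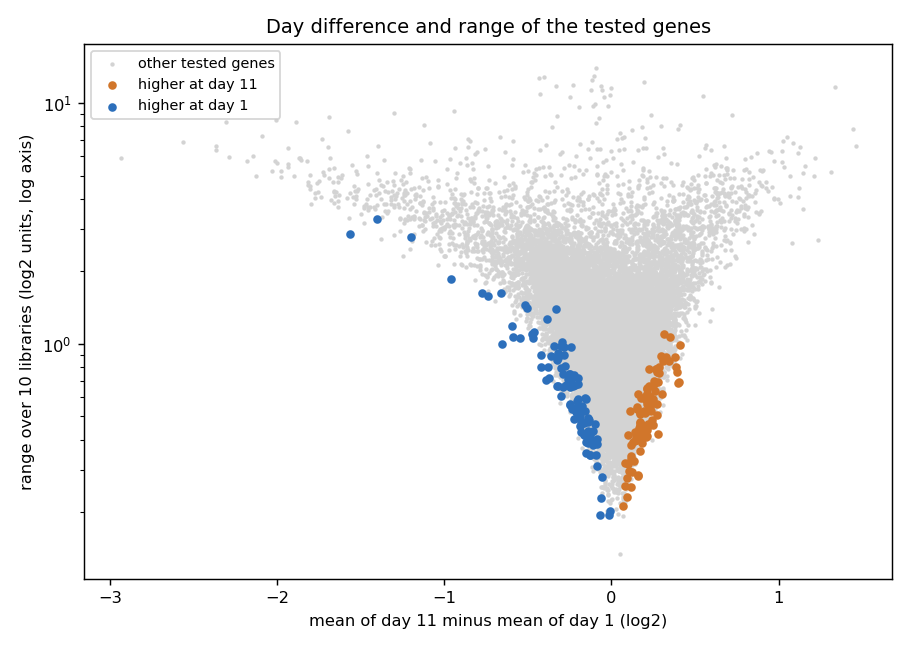
Each point is a tested gene, with the mean of day 11 minus the mean of day 1 (log2) across and the range over the 10 libraries (log2 units, on a log axis) upward. The day 11 list (orange) and the day 1 list (blue) run along the lower edge of the cloud, where the range is small for the size of the difference; 3 genes of the day 1 list reach a mean difference of -1 or below.

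Those 3 genes differed in shape. Besides Glyma.03G198600 they were the genes of rank 25, on chromosome 7, and rank 77, on chromosome 15, in the day 1 list. The gene of rank 25 had 41.0 CPM in the susceptible control of day 1 and between 11.8 and 16.7 in the other 3 libraries of that day, against 3.72 to 12.3 at day 11. The gene of rank 77 had between 37.4 and 43.4 CPM in all 4 libraries of day 1. At day 11 it had 5.88 CPM in the susceptible control and 6.48 in the susceptible plants with biotype 1 alone, 23.3 in the susceptible plants with the inducer, and 40.2, 30.7 and 25.5 in the resistant control, biotype 1 and inducer libraries. Its day 11 values thus ran from about the level of day 1 to far below it.

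Day 11 was also compared with day 1 within each of the 4 conditions sampled on both days. In the day 11 list, 64 of 100 genes were higher at day 11 in 4 of 4 conditions, as were 2.23% of the tested genes. In the day 1 list, 51 of 100 were lower in 4 of 4, as were 2.26% of the tested genes. As these are the values of the rule, nothing is read from the counts. As the labelled cultivars did not divide the libraries alike on both days, a difference within a labelled condition may compare plants of different cultivars, and day and cultivar cannot be told apart in it. Whether the labels, a day effect that differs between the cultivars or differences between single pools lie behind this was not tested. The median difference in the day 11 list was 0.24 in the resistant control, 0.21 in the susceptible inducer plants, 0.13 in the susceptible control and 0.10 in the resistant inducer plants. In the day 1 list it was -0.18, -0.20, -0.24 and -0.09 in the same order. Over all tested genes it was 0.01, 0, -0.03 and 0.08. In the resistant plants with the inducer 83 of 100 genes of the day 11 list were higher at day 11. So were 23 of 100 of the day 1 list and 55.6% of all tested genes. Nothing is read from these medians and counts either.

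The libraries that bounded the gap were unevenly spread. At day 1 the bounding library was the resistant inducer library in 77 of the 200 genes, the susceptible control in 62, the susceptible inducer library in 41 and the resistant control in 20. At day 11 it was the resistant control in 55, the resistant inducer library in 47, the susceptible inducer library in 32, the susceptible control in 28, and the libraries with biotype 1 alone in 20 (resistant) and 18 (susceptible). Leaving out the resistant inducer library of day 1 raised the genes that did not overlap to 245 higher at day 11 and 178 higher at day 1, and only 27 of the 200 members were then chosen again. Leaving out any other library gave between 20 and 85 genes higher at day 11 and between 15 and 51 higher at day 1. Between 21880 and 22209 genes were then tested, and between 70 and 168 members were chosen again. The resistant control of day 1, which had the lowest TMM factor, left 26 and 26 genes when it was left out, and 125 members. Without both libraries with biotype 1 alone the counts were 27 and 24, with 131 members.

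A library can also be read on genes chosen without it. This reading is not independent of the counts above. Genes that separated the days only without a library are ones in which that library reached into the other day. A low share therefore partly restates those counts. The 200 genes were chosen anew from 9 libraries, and the tenth was placed on the side of day 1 or day 11 by the midpoint of the day means of the other 9. The expression filter and the scaling of the placed values used all 10. Over the 10 libraries the share of chosen genes on the side of the library's own day had a median of 32.0%, between 5.0% and 67.0%. Over all tested genes the median share was 49.6%, between 18.4% and 66.1%. The share was above that of all tested genes in 2 of the 10 libraries. Genes chosen from 9 libraries for following the day thus placed the tenth on its own day less often than not in the median library.

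By library the held-out shares were as follows, with 1 library for each condition and no test between treatments. At day 1, 10 of 200 chosen genes (5.0%) placed the resistant inducer library on its own side, where 18.4% of all tested genes did. The susceptible control had 38 (19.0%, against 48.5%), the susceptible inducer library 63 (31.5%, against 51.6%) and the resistant control 112 (56.0%, against 56.1%). At day 11 the susceptible inducer library had 44 (22.0%, against 53.2%), the resistant control 45 (22.5%, against 25.8%), the resistant inducer library 65 (32.5%, against 41.8%) and the susceptible control 89 (44.5%, against 50.8%). The libraries with biotype 1 alone were the highest, with 133 in the susceptible cultivar (66.5%, against 66.1%) and 134 in the resistant one (67.0%, against 45.2%). When both of these were held out together, a reading chosen after the data were seen, the shares were 68.0% and 68.5%, against 67.9% and 48.4% of all tested genes. The susceptible library with biotype 1 alone was thus at the share of all tested genes.

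**Figure D5:**
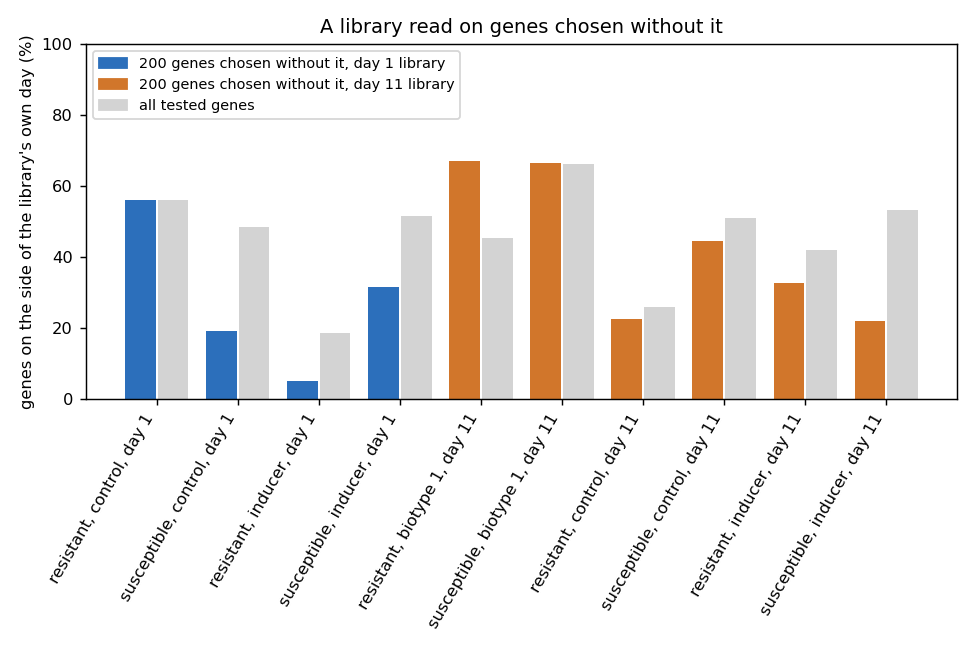
Share of genes (%, axis from 0) on the side of a library's own day, for 200 genes chosen from the other 9 libraries (blue, day 1 libraries; orange, day 11 libraries) and for all tested genes (grey). The coloured bar is above the grey one only in the 2 libraries with biotype 1 alone (66.5% against 66.1% in the susceptible one, 67.0% against 45.2% in the resistant one), and lowest, at 5.0%, in the resistant inducer library of day 1.

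The rule used the values of all 10 libraries but not the treatment labels. Treatment was tested with edgeR's quasi-likelihood test in a model of cultivar, day, their interaction and treatment over all 10 libraries, which leaves 4 residual degrees of freedom. For the inducer against control, edgeR called 0 of the tested genes at an adjusted p under 0.05 (0%). At an unadjusted p under 0.05 there were 2140 (9.72%), while 163 were called by DESeq2. None of the 200 members was called by either tool, and 0 had an unadjusted p under 0.05 in edgeR. The inducer difference was above 0 in 60 of 100 genes of the day 11 list, with a median of 0.02 on the log2 scale, and in 48 of 100 of the day 1 list, with a median of -0.01. Over all tested genes 51.0% of the differences were above 0, with a median of 0.01. The median size without the sign was 0.06 and 0.08 in the lists and 0.22 over all tested genes. The narrow range that the rule favours bounds these sizes, so nothing is read from them or from the counts of members. In Glyma.03G198600 the difference was -0.60 (standard error 0.36, edgeR adjusted p = 0.587).

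The levels of Glyma.03G198600 in the controls of day 1 led to a fit with separate inducer effects at each day, chosen after these values were seen. At day 1 the edgeR calls numbered 0 (0%). An unadjusted p under 0.05 was seen in 5.09% of the tested genes, among them 3 of the 200 members. They were the genes of rank 1, 5 and 6 in the day 1 list. Their differences between inducer and control at day 1 were -1.14 (standard error 0.44), -0.96 (0.29) and -0.92 (0.23), each with an edgeR adjusted p of 0.849. Both controls of day 1 lay above both inducer libraries of day 1 in 19 of 100 genes of the day 1 list and 4 of 100 of the day 11 list, and in 17.5% of the tested genes. They lay below both in 13 of 100 and 17 of 100, and in 13.7% of the tested genes. The rule used these 4 libraries too. At day 11 the calls were also 0 (0%), and the 2.70% of genes with an unadjusted p under 0.05 held 0 members.

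For biotype 1 alone against control, whose libraries are from day 11 only, 0 genes (0%) were called by edgeR and 11 by DESeq2. An unadjusted p under 0.05 was seen in 5.45%. None of the members was called by either tool. The difference was above 0 in 68 of 100 genes of the day 11 list, with a median of 0.04, and in 36 of 100 of the day 1 list, with a median of -0.08, against 47.0% and -0.03 over all tested genes. The libraries with biotype 1 alone are among the day 11 libraries that the rule required to be high in one list and low in the other, so nothing is read from these counts. With plain library totals in place of TMM the median of all tested genes moved up by 0.21 in this comparison. The 1 member with an unadjusted p under 0.05 was the gene of rank 36 in the day 1 list, on chromosome 9. It had 6.78 and 7.66 CPM with biotype 1 alone, 13.1 and 12.3 in the controls of day 11 and 13.6 and 13.0 with the inducer at day 11. Its difference was -0.97 (standard error 0.25, edgeR adjusted p = 0.86). Control and infested libraries did not overlap in 2 of 100 genes of the day 11 list and 0 of the day 1 list. Those 2 were higher when infested. Over all tested genes 1.61% did not overlap and were higher when infested, and 3.16% did not overlap and were lower. Nothing is read from these counts.

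For the labelled cultivar, averaged over the days, 0 genes (0%) were called by edgeR and 1 by DESeq2. An unadjusted p under 0.05 was seen in 1.48%. None of the members was called by either tool or had an unadjusted p under 0.05 in edgeR. The resistant label was higher in 21 of 100 genes of the day 11 list and in 66 of 100 of the day 1 list. Over all tested genes it was higher in 45.7%. The medians were -0.04 and 0.04 in the lists, against -0.02 over all tested genes. The rule used the values of these libraries, so nothing is read from these counts. The difference of the day effect between the labelled cultivars was called in 80 genes (0.363%) by edgeR, with 21.2% at an unadjusted p under 0.05, and in 2348 by DESeq2. None of the 200 members was called by either tool, and 0 had an unadjusted p under 0.05 in edgeR. The median size of that difference was 0.13 in the day 11 list and 0.12 in the day 1 list, against 0.51 over all tested genes. The rule bounds it, since a gene whose day effect turns between the cultivars cannot have a wide gap. Without the resistant control of day 1 edgeR's count over all genes was 4159, and none of the members was among them. The day effect itself had 0 calls in edgeR (0%), with 0.767% at an unadjusted p under 0.05, and nothing is read from it for the members.

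The median level of the members was 15.1 CPM in the day 11 list and 16.2 in the day 1 list, against 16.9 over all tested genes. The lowest count of a member in any library was 36, so all 200 were well above the limit of 3 counts. They lay on all 20 numbered chromosomes, with 1 on an unplaced sequence. Chromosomes 13 and 8 held 18 each (9.0% of the members), and these chromosomes held 7.30% and 7.12% of the tested genes. Chromosome 11 held 7.5% of the members and 5.02% of the tested genes, chromosome 19 held 6.5% and 4.61%, and chromosomes 5 and 15 held 2.5% each against 4.72% and 4.68%. These shares were not tested. No 2 members were next to each other in the order of identifiers on a chromosome.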

How the data were processed

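Leaf RNA of 10 soybean libraries, each pooled from 3 replicates, was sequenced by the authors. Reads were trimmed (Trimmomatic 0.36) and assigned to the primary transcripts of Wm82.a2.v1 (Salmon 0.9.1). The deposited values are estimated counts of each gene, which the authors had not scaled. The kit was stranded, but the strand setting of the quantification is not given in the sources used here, so overlapping genes may share reads. Reads of near-identical genes could be divided between copies. The estimated counts were rounded to whole numbers here.

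CPM was computed with TMM factors in edgeR 4.0.16 (R 4.3.3). Genes whose mean reached 5 CPM were ranked by the gap on log2(CPM + 0.5), 100 per direction. Tests used edgeR's quasi-likelihood test (robust, Benjamini-Hochberg adjustment over all tested genes, threshold 0.05) and, as an alternative, DESeq2 1.42.0. The model kept the cultivar by day term, since the labelled cultivar and day interact in these libraries. A standard error is the log2 difference divided by the square root of F. As conditions were not replicated, residuals of the model gave the spread. The tests and the rule were also run on simulated counts with a fixed spread. The planted changes were far larger than the day differences of the members. The simulation therefore cannot show how the tests or the rule perform at gaps of the size described here, and its outcome is not quoted. Poisson intervals are exact at 95%. Figures used matplotlib 3.10.9.

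The members and lists were chosen with earlier results of these data known. The planned naming rule covered 15 genes per list, genes called in a test, genes near the cut and keyword lists. As 0 identifiers matched the reference gene table (Glycine_max_v4.0), the keyword lists, markers, promoters and proteins were not used here, and only the first 2 identifiers of each list are printed. The genes of rank 5, 6, 25, 36 and 77 in the day 1 list were singled out after their values were seen. Alternatives were other CPM minimums, pseudocounts, scalings and tools, an additive model, differences within conditions, and each library left out in turn.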

Additional observations from a re-analysis of the deposited data

How the results depend on the processing

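The counts of genes that did not overlap between the days, 15 higher at day 11 and 11 higher at day 1, and the 200 members depended on the processing. With a mean of at least 1 CPM the counts were 22 and 28, and at a mean of at least 20 CPM they were 3 and 3, with 72 members chosen again. With plain library totals they were 13 and 4, with 29 members, and the gap fell below 0 in Glyma.07G195700 (-0.003), Glyma.09G228600 (-0.204) and Glyma.18G191600 (-0.036); Glyma.03G198600 was then under 5 CPM. That scaling moved the median day difference of all tested genes by 0.10. Without the libraries with biotype 1 alone the counts were 27 and 24, with 131 members. Ranked by the smallest of the 4 differences within a condition, a pairing by condition and not by replicate, 491 and 498 genes had differences of 1 sign and 23 members were chosen again. With each library left out in turn the counts were 20 to 245 and 15 to 178, with 27 to 168 members. With DESeq2 size factors 169 members were chosen again, and with the pseudocounts 0.1 and 2 194 and 187.

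DESeq2 called 163 genes for the inducer, 11 for biotype 1 alone, 1 for the labelled cultivar and 2348 for cultivar by day, where edgeR called 0, 0, 0 and 80. For cultivar by day edgeR called 307 of the genes over 0.5 CPM in at least 1 library, and 43 to 4159 with each library left out in turn. For the labelled cultivar it called 0 to 14 with each library left out, with 14 without the resistant inducer library of day 1. No member was called in any of these fits. The median share of held-out libraries on their own side was 29.8% with the midpoint of the gap in place of that of the means. No analysis paired by replicate was possible, because RNA of 3 replicates was pooled into every library, and the labels give no replicate numbers. The days were paired by condition only, as above, and the tests of treatment compared libraries within cultivar and day. The cause of these changes was not tested. The gaps that chose the members were of the size of counting error. Of the libraries left out in turn, the resistant inducer library of day 1 changed the counts most, though leaving out any library loosens the condition.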
